A study of Mus musculus with 8 samples.

Results

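The respiratory chain genes of mouse dorsal root ganglia, which lie beside the spinal cord and hold the cell bodies of sensory neurons, were followed across 4 groups of libraries. The set held 101 of the 25780 gene symbols counted. It was made of the 13 mitochondrial symbols (ND1 to ND6 with ND4L, CYTB, COX1 to COX3, ATP6 and ATP8) and of 88 nuclear symbols whose names begin as those of the subunits of complexes I to V do. Of the nuclear symbols, 41 belonged by name to complex I, 4 to complex II, 8 to complex III, 18 to complex IV and 17 to complex V, the ATP synthase. The members were chosen by symbol alone, and 10 further rows with pseudogene names of the same families were left out. The choice by symbol missed Cyc1, a complex III subunit, and Atpif1, the inhibitor of the ATP synthase, which are given beside the members below. ATP synthase subunits stood under older symbols, so that Atp5a1 and Atp5b are the alpha and beta subunits now called Atp5f1a and Atp5f1b.

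The mice were either G9a-iKO (iKO), with the genotype Avil-iCreERT2/AJwo /G9aflox/flox, or wild type (WT), littermates that lacked Cre. G9a is the histone methyltransferase encoded by Ehmt2. Cre was driven by Avil, a gene of sensory neurons, so the other cells of the ganglion were not targeted. Both genotypes received CFA, an adjuvant that inflames tissue, or vehicle in the left paw, and ganglia were taken 14 days later. The groups were iKO CFA, iKO vehicle, WT CFA and WT vehicle, with 2 libraries of total RNA each. Whether the WT mice carried the floxed alleles, how Cre was induced, the age and sex of the mice, which ganglia were pooled and whether the libraries of a group stem from different animals are not given in the sources used here. The p-values below therefore measure the spread between these libraries, which may be technical.

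The respiratory chain passes electrons from NADH and succinate through complexes I, II, III and IV to oxygen and pumps protons across the inner mitochondrial membrane, and complex V uses the proton gradient to make ATP. Complex II is made wholly from nuclear genes. The other complexes combine a few hydrophobic core proteins, transcribed from the circular mitochondrial DNA as long precursors that are cut into single RNAs, with nuclear subunits that are made in the cytosol and imported. Sensory neurons have long axons and a high demand for ATP, and their cell bodies are rich in mitochondria.

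The libraries held between 26312614 and 42971823 counted reads. Levels are given as CPM, the CPM of edgeR with TMM-scaled library sizes, which allow for library composition, and differences as log2 differences ± standard error from edgeR's quasi-likelihood test with Benjamini-Hochberg adjustment over the 20235 genes tested. Of the members, 100 passed the filter on low counts. Cox7a1, a heart and muscle isoform of complex IV, did not, with 0 and 0 reads in iKO CFA, 3 and 0 in iKO vehicle, 0 and 0 in WT CFA and 0 and 1 in WT vehicle. Ehmt2, the targeted gene, was at 45 and 44.2 CPM in iKO CFA, 34 and 31.6 CPM in iKO vehicle, 74.2 and 61.3 CPM in WT CFA and 74.4 and 65.4 CPM in WT vehicle, so all 4 iKO libraries lay below all 4 WT libraries (-0.60 ± 0.18, adjusted p = 0.154 under CFA and -1.09 ± 0.18, adjusted p = 0.00655 under vehicle). All 15 sensory neuron markers were detected in every library, with summed levels from 12055 to 25806 CPM. Libraries stood apart in ways that touch the members. Over 6 nuclear noncoding RNAs the iKO and WT CFA libraries summed to 75.7 to 126 CPM, against 4035 and 4013 CPM in the WT vehicle libraries. Over 15 skeletal muscle markers 7 libraries summed to 5.07 to 17.7 CPM, against 632 CPM in WT vehicle library 1. WT CFA libraries 1 and 2 differed from each other by a median absolute log2 difference of 0.59 over all genes, against 0.17 to 0.28 in the other groups.

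Several members have near-identical copies elsewhere in the genome, and their reads can be divided or lost depending on how the read counter treated such reads, which is not given in the sources used here. Stretches of 3 members are shown because the counts of these genes turn on them. Each is set beside its copy, from GENCODE M21 transcripts (GRCm38), 5′ to 3′, with capitals on the bases that differ. ATP6 matches the pseudogene Gm10925 of chromosome 1 without a mismatch over 678 of its 681 bases, ND3 differs from Gm28438 of chromosome 1 by 1 base in 345, and the coding sequence of Ndufs5 on chromosome 4 differs from the processed pseudogene Ndufs5-ps of chromosome 16 by 2 bases in 319. The stretches are bases 1 to 61 of ATP6, 1 to 33 of ND3 and 298 to 358 of the Ndufs5 transcript, with the matching bases of each copy.
ATP6: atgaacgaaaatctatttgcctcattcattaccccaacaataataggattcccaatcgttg
Gm10925: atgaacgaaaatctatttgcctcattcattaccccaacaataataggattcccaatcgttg
ND3: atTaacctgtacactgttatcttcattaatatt
Gm28438: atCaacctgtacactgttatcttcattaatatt
Ndufs5: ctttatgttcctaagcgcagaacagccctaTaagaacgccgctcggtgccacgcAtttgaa
Ndufs5-ps: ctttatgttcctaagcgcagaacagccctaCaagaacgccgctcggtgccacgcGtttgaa

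The 13 mitochondrial genes took 6.09% and 5.95% of the counted reads in iKO CFA, 1.34% and 1.86% in iKO vehicle, 3.94% and 12.1% in WT CFA and 3.57% and 2.76% in WT vehicle. The 88 nuclear genes took 1.48% and 1.47% of the reads in iKO CFA, 1.08% and 1.11% in iKO vehicle, 1.05% and 1.58% in WT CFA and 0.948% and 1.07% in WT vehicle. The mitochondrial share therefore spanned a much wider range than the nuclear share. For each read of a nuclear member there were 4.11 and 4.05 mitochondrial reads in iKO CFA, 1.24 and 1.69 in iKO vehicle, 3.74 and 7.65 in WT CFA and 3.76 and 2.59 in WT vehicle. Both iKO vehicle libraries had the fewest mitochondrial reads per nuclear read, and WT CFA library 2 had the most. The shares rest on total RNA of whole ganglia, in which fewer cells of a type and less RNA per cell cannot be told apart. The 12S ribosomal RNA of the mitochondrion, which is no member, mt-Rnr1 was at 1289 and 1197 CPM in iKO CFA, 270.1 and 246 CPM in iKO vehicle, 472 and 2622 CPM in WT CFA and 1501 and 494 CPM in WT vehicle, so that WT vehicle library 1 had more of it than either iKO CFA library.

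**Figure D1:**
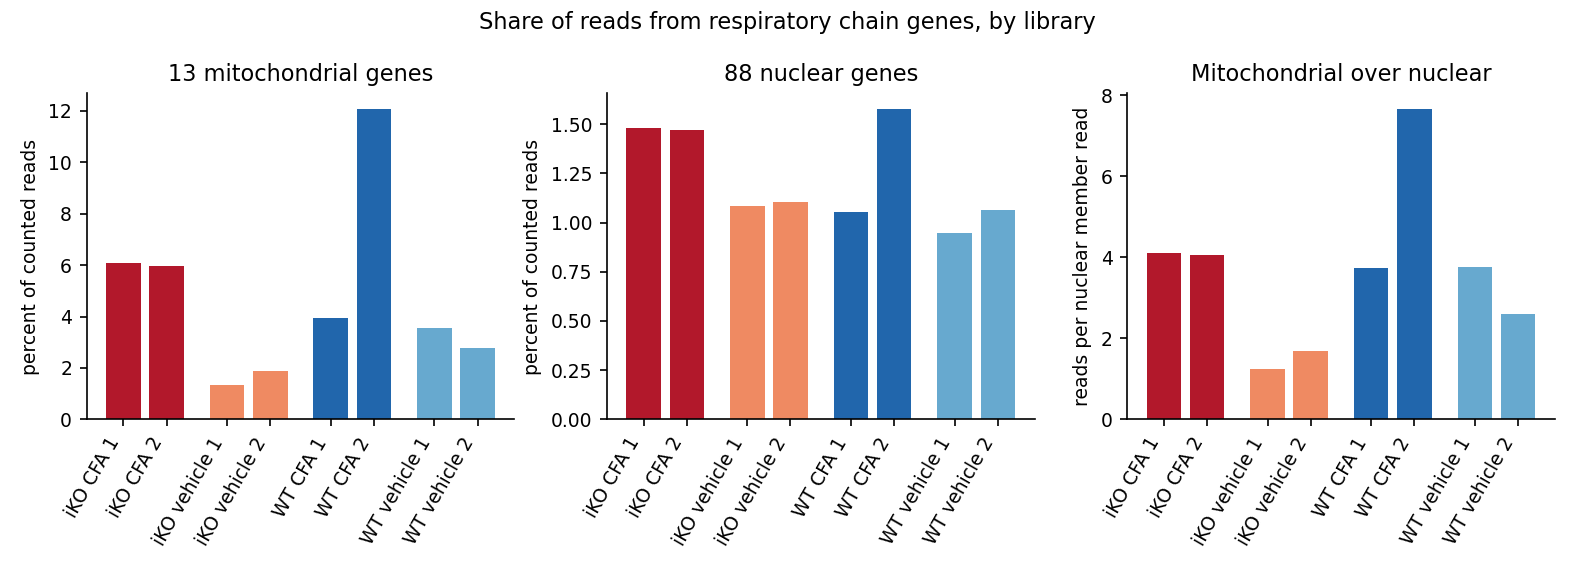
Share of counted reads from the 13 mitochondrial and the 88 nuclear respiratory chain genes, and mitochondrial reads per nuclear member read, 1 bar a library, with 2 libraries in each of the 4 groups. The iKO vehicle libraries have the lowest mitochondrial shares (1.34% and 1.86%) and WT CFA library 2 the highest (12.1%), while the nuclear share stays between 0.948% and 1.58%.

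Per kilobase of transcript, the mitochondrial genes fell into separate ranges. COX1, the catalytic subunit of complex IV, had the highest median over the 8 libraries (10927 CPM per kilobase), and CYTB (cytochrome b of complex III), ND1, ND2, ND4, ND5 and ND6 (membrane subunits of complex I) had medians from 1573 to 5709 CPM per kilobase. COX2, COX3, ATP6, ND3 and ND4L had medians of only 24.1 to 78.7 CPM per kilobase. Each of these 5 genes lies over at least 98.99% of its length in a pseudogene of chromosome 1 that is at least 99% identical, whereas such copies cover 63.6% of ND4, 31.3% of COX1 and 0% of the remaining genes. ATP8, for which no copy was found among the GENCODE transcripts, was lower still, with a median of 9.06 CPM per kilobase. ATP8 overlaps ATP6 on the mitochondrial DNA and ND4L overlaps ND4, so reads of the overlaps cannot be assigned to either gene. The levels of these 6 genes are uncertain, and whether reads were lost to the copies or overlaps was not tested. Gm10925, the copy of ATP6 that was counted as a gene of its own, was at 117 and 121 CPM in iKO CFA, 21.5 and 32.1 CPM in iKO vehicle, 62.8 and 209 CPM in WT CFA and 43.1 and 47.7 CPM in WT vehicle. ATP6 itself was at 91.7 and 97.9 CPM in iKO CFA, 18.9 and 29.6 CPM in iKO vehicle, 61.7 and 253 CPM in WT CFA and 20.6 and 13.5 CPM in WT vehicle. The strand setting of the counting is not given, and ND6, encoded on the opposite strand from the other mitochondrial members, cannot be told apart from antisense RNA of its region.

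**Figure D2:**
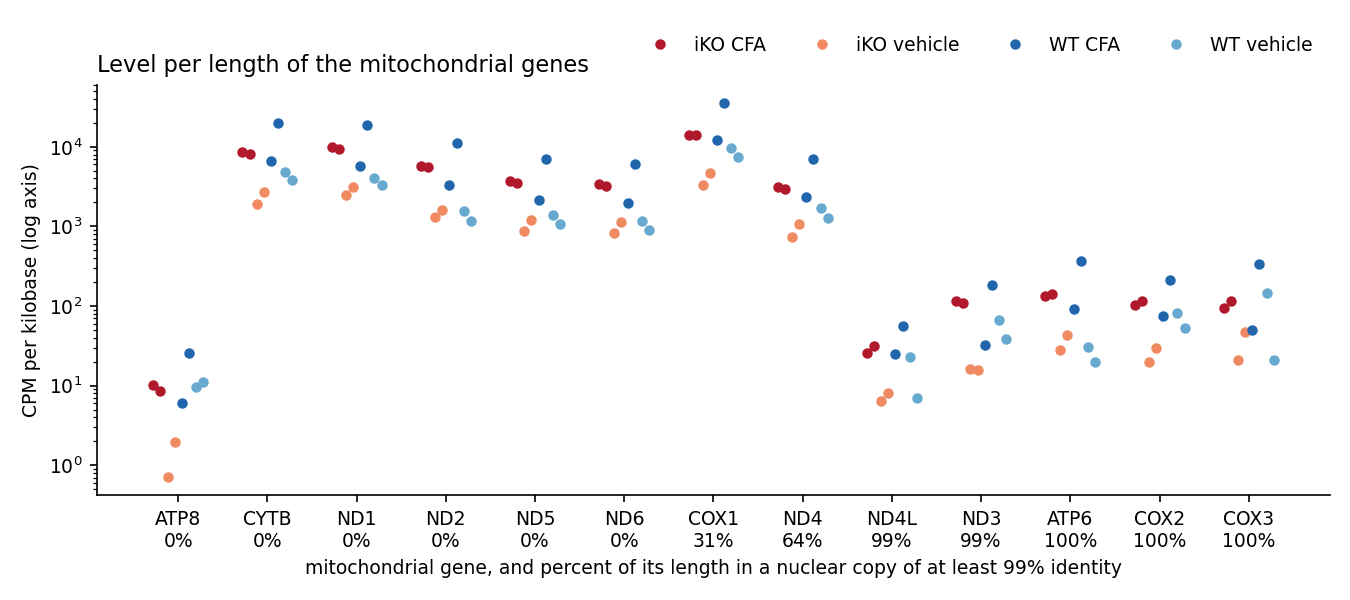
Level of each mitochondrial gene in CPM per kilobase on a log axis, 1 point a library, with genes ordered by the percent of their length that lies in a nuclear copy of at least 99% identity. The 5 genes covered by at least 98.99% have medians of 24.1 to 78.7 CPM per kilobase, ATP8 has 9.06, and the 7 others have medians of 1573 to 10927.

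The make-up of the mitochondrial reads also set the WT vehicle libraries apart, and for some genes all iKO libraries from all WT libraries. ND2 supplied 7.82% to 9.88% of these reads in the iKO and WT CFA libraries and 5.10% and 4.89% in WT vehicle. COX1 supplied 35.9% to 43.4% in the iKO and WT CFA libraries and 46.9% and 46.5% in WT vehicle, and ATP6 0.133% to 0.190%, against 0.0656% and 0.0550% in WT vehicle. ND5 and ND6 were at their lowest share in WT vehicle too, at 8.11% and 8.0% and at 1.92% and 1.91%. ND1 supplied 15.3% to 16.7% in the iKO libraries and 12.2% to 13.5% in the WT libraries of both treatments. In the same order ND5 supplied 10.9% to 11.4% and 8.0% to 9.64%, and ND6 2.87% to 3.05% and 1.91% to 2.38%. COX1 supplied 35.9% to 37.2% in iKO and 40.7% to 46.9% in WT, and CYTB 15.6% to 16.4% and 17.2% to 18.0%. ND4 kept nearly the same share, from 7.09% to 7.56% over all 8 libraries. Relative to WT vehicle, the mitochondrial genes therefore differed by unequal amounts.

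CFA was first compared with vehicle in iKO mice. All 13 mitochondrial genes were higher in both iKO CFA libraries than in both iKO vehicle libraries, where 33.9% of all genes tested were apart in this direction. Their median log2 difference was 1.86 (range 1.64 to 2.82), beside a median of -0.00 over all genes. COX1 was at 21520.4 and 21546 CPM in iKO CFA, against 5119 and 7180.2 CPM in iKO vehicle (1.81 ± 0.45, adjusted p = 0.0945). CYTB was at 9860.3 and 9394 CPM in iKO CFA, against 2207 and 3103 CPM in iKO vehicle (1.86 ± 0.46, adjusted p = 0.0945). ND2, a membrane subunit of complex I, was at 5920.5 and 5711 CPM in iKO CFA, against 1364 and 1681 CPM in iKO vehicle (1.93 ± 0.49, adjusted p = 0.0951). In each of these genes both iKO CFA libraries were close to each other and far above both iKO vehicle libraries. In edgeR's quasi-likelihood test 0 of 13 passed, where 0.0395% of all genes were called higher and 0% lower. At an unadjusted p under 0.05, 12 of 13 were higher, where 2795 of 20235 genes were. DESeq2 called 12 higher, where it called 9.51% of the genes with an adjusted p. Without WT CFA library 1 or without WT CFA library 2, which enter the shared estimate of spread but not the comparison, 12 were called higher, where 14.5% and 14.3% of all genes were, and without any 1 of the 6 other libraries 0 were. With the iKO libraries alone all 13 were called, where 22% of all genes were.

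ND4, ND5 and ND6 lay close to the median, at 1.76 ± 0.45, 1.78 ± 0.48 and 1.74 ± 0.45. ND1, next to the ribosomal RNAs on the mitochondrial map, was at 9568 and 8876 CPM in iKO CFA, against 2361 and 3023 CPM in iKO vehicle (1.78 ± 0.47, adjusted p = 0.0979). COX2, which takes electrons from cytochrome c, was at 70.6 and 78.1 CPM in iKO CFA, against 13.8 and 20.2 CPM in iKO vehicle (2.13 ± 0.45, adjusted p = 0.0903). COX3 was at 75 and 90.8 CPM in iKO CFA, against 16.5 and 36.7 CPM in iKO vehicle, with the largest SE of the 13 (1.64 ± 0.96, adjusted p = 0.285). ND3 differed by 2.82 ± 0.68, ND4L by 1.98 ± 0.56, ATP6 by 1.97 ± 0.56 and ATP8 by 2.82 ± 0.77, all from the low counts described above. The 12S and 16S ribosomal RNAs did not pass either, with 2.27 ± 0.73, adjusted p = 0.11 for mt-Rnr1 and 2.25 ± 0.67, adjusted p = 0.103 for mt-Rnr2.

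The nuclear members differed less. Of 87 tested, 70 were higher in both iKO CFA libraries than in both iKO vehicle libraries and 8 were lower, where 33.9% and 35.6% of all genes tested were apart in these directions. Their median log2 difference was 0.47 (range -1.13 to 3.09, from the muscle isoforms Cox6a2 and Cox8b, which had few reads). By complex the medians were 0.50 for complex I, 0.16 for complex II, 0.38 for complex III, 0.62 for complex IV and 0.47 for complex V. In edgeR's quasi-likelihood test 0 of 87 passed. At an unadjusted p under 0.05, 33 were higher and 0 lower, where 2795 and 2996 of 20235 genes were. DESeq2 called 11 higher and 0 lower, where it called 9.51% and 11.1% of the genes with an adjusted p. Leaving out either WT CFA library raised the number called, as given at the end. With the iKO libraries alone 58 were called higher and 5 lower, where 22% and 23.4% of all genes were.

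Nuclear members with the smallest p in complexes I, III, IV and V are given first, none of them past the adjusted threshold in edgeR. Ndufb8, an accessory subunit of the membrane arm of complex I, was at 444 and 426 CPM in iKO CFA, against 179.8 and 189 CPM in iKO vehicle (1.24 ± 0.39, adjusted p = 0.107). Uqcrq, a small subunit of complex III, was at 276 and 263 CPM in iKO CFA, against 118 and 127 CPM in iKO vehicle (1.13 ± 0.37, adjusted p = 0.111). In both genes the libraries of a group lay close together and the groups were far apart. Cox6c, a small subunit of complex IV, was at 296 and 309.6 CPM in iKO CFA, against 139.96 and 142 CPM in iKO vehicle (1.11 ± 0.41, adjusted p = 0.13), Cox7b, of the same complex, at 184 and 168 CPM in iKO CFA, against 97.1 and 94.3 CPM in iKO vehicle (0.88 ± 0.33, adjusted p = 0.133), and Atp5e, the epsilon subunit of the ATP synthase stalk, at 171 and 139 CPM in iKO CFA, against 72.1 and 70.6 CPM in iKO vehicle (1.12 ± 0.36, adjusted p = 0.109). Atp5md and Atp5l, small membrane subunits of the ATP synthase, differed by 1.30 ± 0.43 and 1.17 ± 0.43, and Ndufb1 and Ndufa13 of complex I by 1.15 ± 0.39 and 0.85 ± 0.30. Ndufc1 differed by 0.58 ± 0.19, Uqcr11 by 0.84 ± 0.34, Uqcr10 by 0.74 ± 0.31 and Cox7c by 0.80 ± 0.31.

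Core subunits, named by a list of their own, differed among themselves. Sdha, the flavoprotein of complex II, was at 253 and 246 CPM in iKO CFA, against 342 and 349 CPM in iKO vehicle (-0.47 ± 0.21, adjusted p = 0.175). Ndufs1, a core iron-sulfur subunit of complex I, was at 129.9 and 123 CPM in iKO CFA, against 158 and 163 CPM in iKO vehicle (-0.35 ± 0.18, adjusted p = 0.235), and Atp5a1, the alpha subunit of the ATP synthase head, at 801 and 805 CPM in iKO CFA, against 1038 and 1015 CPM in iKO vehicle (-0.35 ± 0.20, adjusted p = 0.26). In all 3 the iKO CFA libraries were the lower ones. Sdhb, the iron-sulfur subunit of complex II, differed by 0.19 ± 0.18. Ndufs7 and Ndufs8, of the iron-sulfur core of complex I, differed by 0.29 ± 0.18 and 0.64 ± 0.28. Ndufv1, which holds the NADH site, differed by 0.24 ± 0.21, Uqcrc1 by -0.17 ± 0.18, the Rieske protein Uqcrfs1 by -0.22 ± 0.19, Cox5a by 0.03 ± 0.17 and Atp5b by -0.11 ± 0.20, none past the threshold. Cox4i1, the common isoform of COX subunit 4, was at 594 and 585 CPM in iKO CFA, against 384 and 384 CPM in iKO vehicle (0.62 ± 0.26, adjusted p = 0.162).

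The members' differences were also read by transcript length. The nuclear members with a GENCODE length were divided into 30 short (231 to 659 nt), 27 middle (680 to 1046 nt) and 29 long ones (1076 to 4715 nt). For CFA against vehicle in iKO the median log2 differences were 0.73, 0.50 and 0.19 in these classes. All other tested genes with a GENCODE length were split at the same cuts, but without a lowest or highest length. The long class thus took in 15911 of them, and the other genes were not matched to the members in length. Their medians in this comparison were 0.58, 0.48 and -0.07. For CFA against vehicle in WT the medians did not fall with length in the members, at 0.54, 0.49 and 0.65. Over the other genes they were -0.04, 0.20 and -0.002. The libraries of WT CFA, which share a treatment, differed with length as well: library 2 minus library 1 had medians of 0.80, 0.56 and 0.28 over the short, middle and long members, and of 0.48, 0.43 and -0.12 over the other genes. In iKO CFA the same difference between libraries had medians of -0.07, -0.01 and -0.02 over the members. The part of transcript length in the members' differences was not tested further.

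**Figure D3:**
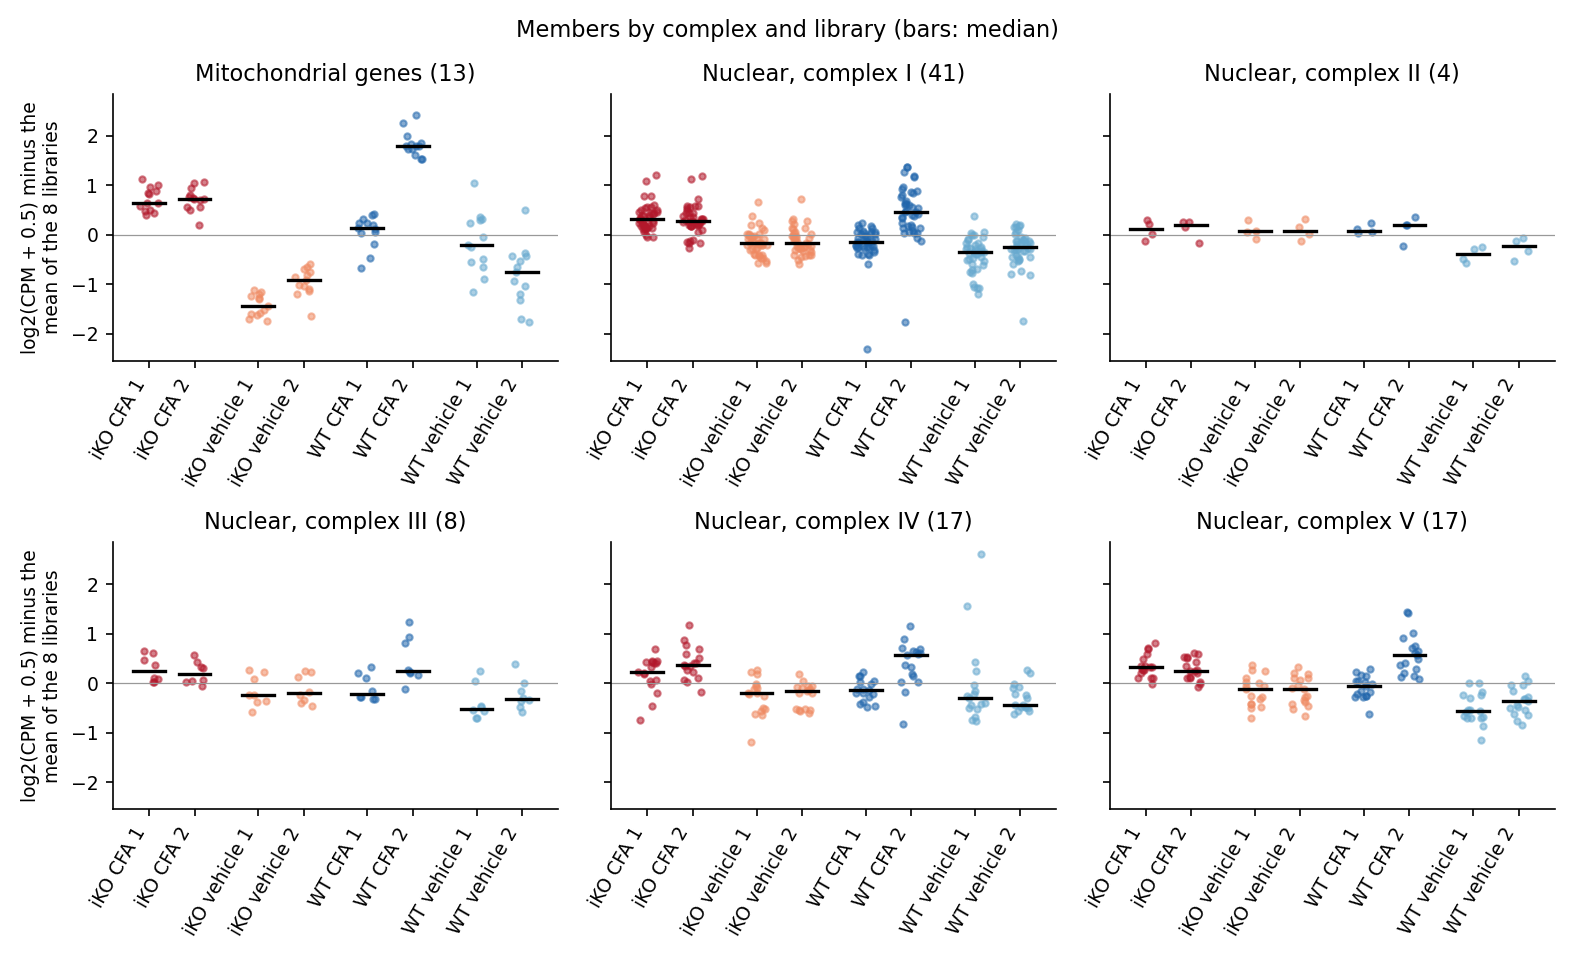
Deviation of each tested member from its mean over the 8 libraries, as log2(CPM + 0.5), by library, for the 13 mitochondrial genes and the nuclear genes of each complex, with a point for each gene and a bar at the median. The mitochondrial medians are highest in WT CFA library 2 and lowest in iKO vehicle, and the nuclear medians of complexes I, III, IV and V are highest in iKO CFA and WT CFA library 2.

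CFA was then compared with vehicle in WT mice, where the libraries of a group differed more. COX1 was at 19008 and 54082 CPM in WT CFA, against 14756 and 11393 CPM in WT vehicle (1.48 ± 0.44, adjusted p = 0.0518), and ND1 at 5523 and 17951 CPM in WT CFA, against 3844 and 3208 CPM in WT vehicle (1.74 ± 0.47, adjusted p = 0.0377). In both genes WT CFA library 2 was far above library 1, and both were above the WT vehicle libraries. Of the 13 mitochondrial genes, 7 were called higher and 0 lower, where 8.12% of all genes tested were called higher and 8.71% lower. They were ATP6, ND2, ND6, ND5, ND1, ND4 and CYTB. ATP6 differed by 3.20 ± 0.59, adjusted p = 0.0116, ND2 by 2.44 ± 0.50, adjusted p = 0.0156, ND6 by 1.97 ± 0.46, adjusted p = 0.0239 and ND5 by 1.89 ± 0.49, adjusted p = 0.0327. ND4 differed by 1.64 ± 0.45, adjusted p = 0.0401 and CYTB by 1.61 ± 0.46, adjusted p = 0.0437. These include the genes whose share of mitochondrial reads was low in WT vehicle. Of the 13, 9 were apart as higher and 0 as lower, where 25.3% and 30.8% of all genes were. COX2 (1.09 ± 0.44), COX3 (1.21 ± 0.95), ND3 (1.03 ± 0.63), ND4L (1.43 ± 0.55) and ATP8 (0.60 ± 0.67) did not pass. Leaving out single libraries changed the number called, and some omissions left no call, as given at the end. With the WT libraries alone the number called was 0, where 0.198% of all genes were called higher. With ATP6 and Gm10925 counted as a single gene the difference was 2.19 ± 0.52 (adjusted p = 0.0272). With ND4L and its copy Gm10222 counted as a single gene it was 1.68 ± 0.43 and passed (adjusted p = 0.0337).

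Of the 87 nuclear members, 21 were called higher and 1 lower after CFA in WT, beside the 8.12% and 8.71% of all genes. The median over the nuclear members was 0.58, and by complex the calls for higher levels were 9 of 41 for complex I, 1 of 4 for complex II, 2 of 8 for complex III, 3 of 17 for complex IV and 6 of 17 for complex V. Of the 87, 56 were apart as higher and 2 as lower, where 25.3% and 30.8% of all genes were. The call with the smallest adjusted p among the higher ones was Atp5d, the delta subunit of the rotating stalk of the ATP synthase, at 276 and 311 CPM in WT CFA, against 128 and 152 CPM in WT vehicle (1.07 ± 0.18, adjusted p = 0.00888). Atp5g1, 1 of the genes for the c subunit of the proton-driven ring, was at 144 and 222 CPM in WT CFA, against 63.4 and 83 CPM in WT vehicle (1.32 ± 0.24, adjusted p = 0.0118). In both genes each WT CFA library lay above each WT vehicle library. In Atp5d the groups were apart by more than the spread within them, and in Atp5g1 the WT CFA libraries differed more in CPM. Ndufc2 of complex I was at 103 and 235 CPM in WT CFA, against 46.3 and 56 CPM in WT vehicle (1.72 ± 0.34, adjusted p = 0.0142), and Ndufs8, a core iron-sulfur subunit, at 91.9 and 173 CPM in WT CFA, against 44.6 and 56.7 CPM in WT vehicle (1.38 ± 0.29, adjusted p = 0.0164). Cox5a, a nuclear subunit of complex IV next to its core, was at 162 and 155 CPM in WT CFA, against 87.2 and 98.3 CPM in WT vehicle (0.77 ± 0.17, adjusted p = 0.0187), with nearly the same value in both WT CFA libraries. Sdhc, a membrane anchor of complex II, was at 108 and 114 CPM in WT CFA, against 71.2 and 69.3 CPM in WT vehicle (0.66 ± 0.16, adjusted p = 0.0277).

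Ndufb8 (1.72 ± 0.40, adjusted p = 0.023) and Ndufb2 (1.45 ± 0.38, adjusted p = 0.0343), accessory subunits of complex I, also passed. Further calls were Ndufv1 (1.0 ± 0.21, adjusted p = 0.0176) and Ndufs7 (0.69 ± 0.18, adjusted p = 0.0331) among the core subunits of complex I. Complex III gave Uqcrc1, a core protein (0.84 ± 0.18, adjusted p = 0.0181), and Uqcrq (1.34 ± 0.37, adjusted p = 0.042). Complex IV gave Cox8a (1.04 ± 0.23, adjusted p = 0.019) and Cox6a1 (1.06 ± 0.24, adjusted p = 0.0223), and complex V gave Atp5g3 (0.77 ± 0.18, adjusted p = 0.0241), Atp5pb of the peripheral stalk (1.14 ± 0.29, adjusted p = 0.0309) and Atp5a1 (0.71 ± 0.20, adjusted p = 0.0413). Cox4i1 (0.81 ± 0.26, adjusted p = 0.0642), Atp5b (0.65 ± 0.20, adjusted p = 0.056), Sdhd (0.58 ± 0.17, adjusted p = 0.0513) and Uqcrc2 (0.59 ± 0.19, adjusted p = 0.0652) were higher in both WT CFA libraries and did not pass. The number of nuclear members called higher changed when single libraries were left out, and some omissions left no call, as given at the end. With the WT libraries alone it was 0, where 0.198% of all genes were called higher.

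Ndufs5, an accessory subunit at the intermembrane side of complex I, was the nuclear member called lower after CFA in WT. It was at 143 and 141 CPM in iKO CFA, 98.3 and 102 CPM in iKO vehicle, 12.1 and 17.9 CPM in WT CFA and 63.9 and 71.3 CPM in WT vehicle, so that WT CFA stood below every other group. It differed by -2.17 ± 0.22, adjusted p = 0.00131 between WT CFA and WT vehicle and kept this call without each of the 8 libraries in turn. Its pseudogene Ndufs5-ps, whose sequence is shown above, was at 0.482 and 0.685 CPM in iKO CFA, 0.245 and 0.316 CPM in iKO vehicle, 91.4 and 130.3 CPM in WT CFA and 1.17 and 0.477 CPM in WT vehicle, and differed by 7.08 ± 0.42, adjusted p = 0.000183. Reads added over both were at 144 and 142 CPM in iKO CFA, 98.6 and 102 CPM in iKO vehicle, 104 and 148 CPM in WT CFA and 65.1 and 71.8 CPM in WT vehicle. With both counted as a single gene, an alternative chosen after the data were seen, the difference between WT CFA and WT vehicle was 0.83 ± 0.21 (adjusted p = 0.0323), in the opposite direction and near the median of the nuclear members. The level of Ndufs5 by itself is therefore uncertain in every comparison with WT CFA.

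**Figure D4:**
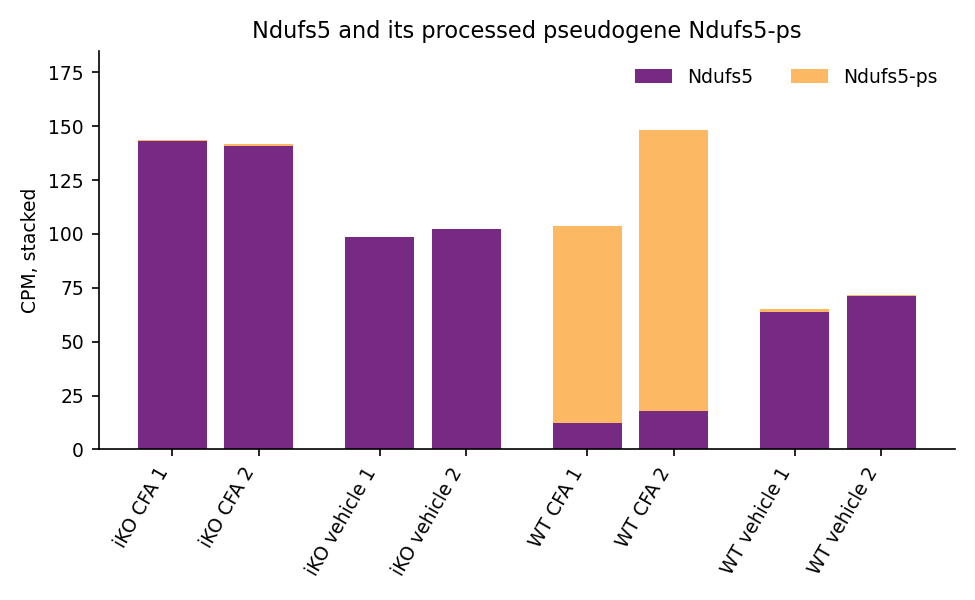
Level of Ndufs5 and of its processed pseudogene Ndufs5-ps in CPM, stacked, 1 bar a library. In the WT CFA libraries the pseudogene takes 91.4 and 130.3 CPM and Ndufs5 12.1 and 17.9 CPM, while in the 6 other libraries the pseudogene is at 0.245 to 1.17 CPM.

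The genotypes were then compared under CFA. In edgeR's quasi-likelihood test 0 of 13 mitochondrial genes passed, with 0 at an unadjusted p under 0.05 and 0 by DESeq2, where 1.5% of all genes were called higher and 0.208% lower. Their median log2 difference was -0.49. In all 13 the WT CFA libraries lay on both sides of the iKO CFA libraries. COX1, for instance, was at 21520.4 and 21546 CPM in iKO CFA, against 19008 and 54082 CPM in WT CFA. Of the 87 nuclear members 1, Ndufs5, was called higher (3.24 ± 0.23, adjusted p = 0.000314), and with Ndufs5-ps added the difference was 0.17 ± 0.21 (adjusted p = 0.747). The median over the nuclear members was 0.03, with 7 apart as higher and 4 as lower, where 21.6% and 16.7% of all genes were. Without WT CFA library 2, 5 mitochondrial and 37 nuclear members were called higher, where 11.4% of all genes were. Without WT CFA library 1, 8 mitochondrial and 7 nuclear members were called lower, where 0.815% of all genes were, so the direction of these calls depended on which WT CFA library was kept. Atp5a1 (-0.20 ± 0.20), Sdha (-0.18 ± 0.21), Uqcrc1 (-0.16 ± 0.18), Ndufb5 (0.32 ± 0.17), Ndufa1 (0.30 ± 0.20), Uqcrh (0.22 ± 0.21), Cox7a2 (0.17 ± 0.20) and Atp5k (0.32 ± 0.34) did not pass.

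The genotypes were last compared under vehicle. The mitochondrial genes had a median log2 difference of -0.90 and the nuclear members 0.15. Of the 13 mitochondrial genes 0 were called higher and 1 lower, where 8.28% of all genes tested were called higher and 9.33% lower. The call was ATP8, at 0.147 and 0.402 CPM in iKO vehicle, against 1.94 and 2.29 CPM in WT vehicle (-2.95 ± 0.77, adjusted p = 0.0341), from 6 and 14 reads in iKO vehicle, against 58 and 77 reads in WT vehicle. It was lost without any 1 of the 4 iKO or 2 WT vehicle libraries. Of the 13, 7 were apart as lower and 0 as higher, where 36.5% and 38.9% of all genes were. COX1 was at 5119 and 7180.2 CPM in iKO vehicle, against 14756 and 11393 CPM in WT vehicle (-1.09 ± 0.44, adjusted p = 0.116), with both iKO vehicle libraries lower. COX2 (-1.44 ± 0.44, adjusted p = 0.0548) and CYTB (-0.90 ± 0.45, adjusted p = 0.188) also lay below 0, whereas ND2 was at 1364 and 1681 CPM in iKO vehicle, against 1605 and 1197 CPM in WT vehicle (0.12 ± 0.47, adjusted p = 0.883), with overlapping groups. ND1 (-0.39 ± 0.45), ND3 (-1.73 ± 0.66), ND4 (-0.73 ± 0.44), ND4L (-1.03 ± 0.56), ND5 (-0.25 ± 0.47), ND6 (-0.07 ± 0.44), COX3 (-1.30 ± 0.95) and ATP6 (0.51 ± 0.55) did not pass. With Gm10925 added, the direction of ATP6 turned, at -0.35 ± 0.50 (adjusted p = 0.659). The 16S ribosomal RNA mt-Rnr2 was at 356 and 360.1 CPM in iKO vehicle, against 2769 and 928 CPM in WT vehicle (-2.37 ± 0.67, adjusted p = 0.0429).

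Of the 87 nuclear members edgeR called 11 higher in iKO vehicle and 0 lower, where 8.28% and 9.33% of all genes were called. At an unadjusted p under 0.05, 26 were higher and 3 lower, where 3495 and 3552 of 20235 genes were. DESeq2 called 14 higher and 3 lower (Uqcrb, Cox7c and Cox8b), where it called 10.9% and 13.8% of the genes with an adjusted p. Of the 87, 51 were apart as higher and 21 as lower, where 38.9% and 36.5% of all genes were. The calls held catalytic and structural subunits: Atp5d (0.89 ± 0.18, adjusted p = 0.0143), Atp5a1 (0.86 ± 0.20, adjusted p = 0.0219), Atp5g1 (0.97 ± 0.24, adjusted p = 0.0287), Atp5b (0.71 ± 0.20, adjusted p = 0.0418) and Atp5g3 (0.61 ± 0.18, adjusted p = 0.0465) of the ATP synthase, Uqcrc1 (0.84 ± 0.18, adjusted p = 0.0167), Cox5a (0.77 ± 0.17, adjusted p = 0.0176), Sdhc (0.62 ± 0.16, adjusted p = 0.0321), Ndufa10 (0.80 ± 0.19, adjusted p = 0.0258), Ndufv1 (0.72 ± 0.21, adjusted p = 0.046) and the retrocopy Ndufb4c. Uqcrc1 was at 293 and 286 CPM in iKO vehicle, against 149 and 174 CPM in WT vehicle. Atp5a1 was at 1038 and 1015 CPM in iKO vehicle, against 501 and 628 CPM in WT vehicle, and Atp5b at 1377 and 1349 CPM in iKO vehicle, against 722 and 942 CPM in WT vehicle. In these genes the iKO vehicle libraries agreed closely and WT vehicle library 2 lay above library 1. Some small subunits were lower in both iKO vehicle libraries and did not pass in edgeR, with Cox7c at 96.9 and 99.2 CPM in iKO vehicle, against 169 and 172 CPM in WT vehicle (-0.80 ± 0.31, adjusted p = 0.107) and Uqcrb at 47.9 and 43 CPM in iKO vehicle, against 67.7 and 74.8 CPM in WT vehicle (-0.65 ± 0.22, adjusted p = 0.0716). By length class the medians were 0.06 for the short, 0.11 for the middle and 0.47 for the long members, and -0.43, -0.05 and 0.08 over the other genes. Leaving out single libraries changed the number of nuclear members called higher, and some omissions left no call, as given at the end.

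The difference between both CFA responses, iKO minus WT, was tested as an interaction. In edgeR's quasi-likelihood test 0 mitochondrial genes were called higher and 0 lower, where 6.19% of all genes were called higher and 3.17% lower, with 0 at an unadjusted p under 0.05 and 0 by DESeq2. Of the nuclear members 1 was called higher and 2 lower. Uqcrc1 was at 262 and 253 CPM in iKO CFA, 293 and 286 CPM in iKO vehicle, 305 and 273 CPM in WT CFA and 149 and 174 CPM in WT vehicle, and its interaction was -1.0 ± 0.25, adjusted p = 0.0429. Atp5a1 was at 801 and 805 CPM in iKO CFA, 1038 and 1015 CPM in iKO vehicle, 985 and 859.5 CPM in WT CFA and 501 and 628 CPM in WT vehicle, with an interaction of -1.06 ± 0.28, adjusted p = 0.0481. In both genes WT vehicle was the low group and the other groups lay close together. Neither call was kept without any 1 of the iKO or WT vehicle libraries. Without WT CFA library 1, 2 mitochondrial and 29 nuclear members were called lower, where 10.4% of all genes were. Without WT CFA library 2, 9 mitochondrial and 27 nuclear members were called higher and 11 nuclear members lower, where 16.9% and 21.3% of all genes were. Ndufs5, the member called higher (2.68 ± 0.30, adjusted p = 0.00302), had an interaction of -0.32 ± 0.30 (adjusted p = 0.496) with its pseudogene added. The next genes by p were Atp5d (-0.94 ± 0.25, adjusted p = 0.0521), Ndufa10 (-0.99 ± 0.27, adjusted p = 0.0541), Cox5a (-0.74 ± 0.23, adjusted p = 0.0776), Atp5b (-0.76 ± 0.28, adjusted p = 0.109) and Ndufv1 (-0.76 ± 0.29, adjusted p = 0.122). The mitochondrial interactions ranged from -1.24 for ATP6 to 2.22 for ATP8, each with an SE of at least 0.61. With Gm10925 added, the interaction of ATP6 was -0.12 ± 0.71. A lack of calls at this spread does not show that the responses were alike.

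**Figure D5:**
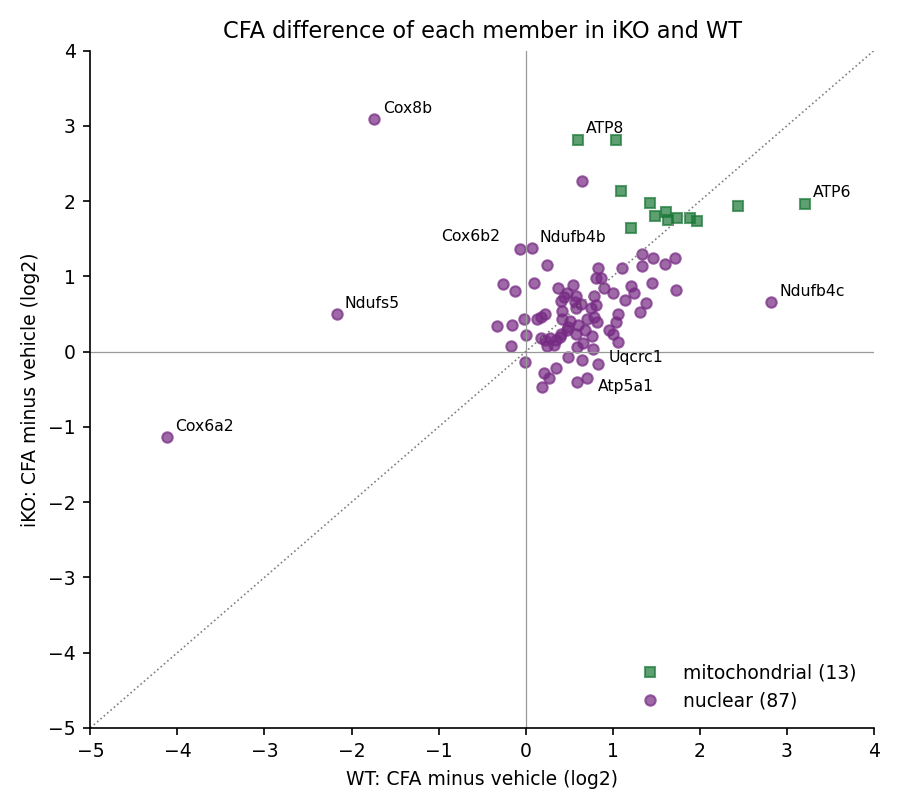
Log2 difference between CFA and vehicle of each tested member, in iKO on the vertical and in WT on the horizontal axis, for 13 mitochondrial and 87 nuclear genes, with the dotted line at equal values. The mitochondrial genes lie at 1.64 to 2.82 in iKO and 0.60 to 3.20 in WT, and most nuclear genes between 0 and 1.5 in both.

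Tissue isoforms of complex IV had few reads. Cox6a2, the heart and muscle isoform, was at 0.0301 and 0.274 CPM in iKO CFA, 0.564 and 0.115 CPM in iKO vehicle, 0.267 and 0 CPM in WT CFA and 4.86 and 0.149 CPM in WT vehicle, so that WT vehicle library 1 was high and its partner library was not. Its common partner Cox6a1 was at 474 and 439 CPM in iKO CFA, 324 and 319 CPM in iKO vehicle, 354 and 564 CPM in WT CFA and 204 and 236 CPM in WT vehicle. Cox8b, another muscle isoform, was at 0.121 and 1.07 CPM in iKO CFA, 0.049 and 0.0861 CPM in iKO vehicle, 0.24 and 0.376 CPM in WT CFA and 2.01 and 0.0596 CPM in WT vehicle, and its common partner Cox8a at 311 and 319.6 CPM in iKO CFA, 241 and 239.7 CPM in iKO vehicle, 259 and 393 CPM in WT CFA and 149 and 168 CPM in WT vehicle. The highest value of both muscle isoforms fell in the library that held skeletal muscle markers at 632 CPM. Of those 15 markers 10 were at 0 reads in some library, among them Ckm, Myh4 and Mb. Cox4i2, an isoform linked to low oxygen, was at 1.39 and 2.58 CPM in iKO CFA, 0.858 and 1.46 CPM in iKO vehicle, 1.63 and 2.43 CPM in WT CFA and 0.838 and 0.864 CPM in WT vehicle, Cox6b2, the testis isoform, at 1.96 and 3.54 CPM in iKO CFA, 0.539 and 1.61 CPM in iKO vehicle, 1.2 and 3.05 CPM in WT CFA and 2.68 and 1.73 CPM in WT vehicle, and Cox7b2 at 0.663 and 0.576 CPM in iKO CFA, 0.343 and 0.172 CPM in iKO vehicle, 0.0534 and 0.137 CPM in WT CFA and 0.0335 and 0.0298 CPM in WT vehicle. Ndufa4l2, the hypoxia-linked relative of Ndufa4, was at 1.08 and 0.74 CPM in iKO CFA, 0.711 and 0.718 CPM in iKO vehicle, 0.588 and 1.98 CPM in WT CFA and 0.637 and 1.04 CPM in WT vehicle. In edgeR none of these isoforms was called, while DESeq2 called Cox6a2 lower for WT CFA against WT vehicle (adjusted p = 0.0411) and Cox8b lower for iKO vehicle against WT vehicle (adjusted p = 0.0450). Ndufa4, which stands with complex I by its symbol and is known as a subunit of complex IV, was at 508 and 502 CPM in iKO CFA, 277 and 277 CPM in iKO vehicle, 334 and 838 CPM in WT CFA and 228 and 279 CPM in WT vehicle, with WT CFA library 2 the highest.

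Retrocopies, which lack introns and arose from the RNA of a parent gene, were counted beside their parents. Ndufb4c matches Ndufb4 without a mismatch over 390 bases. It was at 3.74 and 7.7 CPM in iKO CFA, 3.16 and 4.08 CPM in iKO vehicle, 3.31 and 9.17 CPM in WT CFA and 1.14 and 0.626 CPM in WT vehicle, beside 121 and 112 CPM in iKO CFA, 59.8 and 58.6 CPM in iKO vehicle, 66.8 and 163 CPM in WT CFA and 63.1 and 68.2 CPM in WT vehicle for Ndufb4. The retrocopy was called higher in WT CFA against WT vehicle (2.82 ± 0.60, adjusted p = 0.0181) and in iKO vehicle against WT vehicle (2.04 ± 0.59, adjusted p = 0.0465), and the parent was not (0.81 ± 0.35, adjusted p = 0.141 and -0.15 ± 0.35, adjusted p = 0.792). Whether retrocopy and parent differed from each other in this was not tested. Because reads of the shared 390 bases cannot be assigned to either gene by sequence, both levels are uncertain. Ndufb4b was at 2.95 and 1.34 CPM in iKO CFA, 0.931 and 0.718 CPM in iKO vehicle, 0.721 and 1.27 CPM in WT CFA and 0.57 and 1.31 CPM in WT vehicle, Ndufs6b at 1.24 and 1.32 CPM in iKO CFA, 0.564 and 0.804 CPM in iKO vehicle, 0.935 and 1.3 CPM in WT CFA and 1.54 and 1.13 CPM in WT vehicle and Cox6c2 at 0.271 and 1.51 CPM in iKO CFA, 0.245 and 0.115 CPM in iKO vehicle, 0.481 and 0.411 CPM in WT CFA and 0.302 and 0.268 CPM in WT vehicle.

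Other cell types of the ganglion varied between the same libraries. The summed level of 8 erythroid markers was 1701 and 1582 CPM in iKO CFA, 434 and 358 CPM in iKO vehicle, 193 and 1574 CPM in WT CFA and 368 and 159 CPM in WT vehicle. Among the WT CFA libraries the one with more erythroid RNA was also the one with 12.1% mitochondrial reads. The 10 granulocyte markers summed to 1550 and 1564 CPM in iKO CFA, 107 and 70.3 CPM in iKO vehicle, 30.6 and 260.0 CPM in WT CFA and 54.8 and 29.8 CPM in WT vehicle. The 8 Schwann cell markers summed to 16424 and 15164 CPM in iKO CFA, 6673 and 7526 CPM in iKO vehicle, 7867 and 18315 CPM in WT CFA and 11598 and 6910 CPM in WT vehicle. All 3 lists were high in both iKO CFA libraries and higher in WT CFA library 2 than in library 1. The macrophage, fibroblast, satellite glia, endothelium, pericyte and adipocyte lists were also higher in iKO CFA than in iKO vehicle. They too were higher in WT CFA library 2 than in library 1. Fibroblast markers, for instance, summed to 2331 and 2473 CPM in iKO CFA and 980 and 1060 CPM in iKO vehicle. They summed to 1177 and 2526 CPM in WT CFA and 1859 and 1184 CPM in WT vehicle, with Dpt at 0 in some library. The 15 sensory neuron markers summed to 18077 and 18114 CPM in iKO CFA, 24701 and 25214 CPM in iKO vehicle, 25806 and 20422 CPM in WT CFA and 12055 and 15819 CPM in WT vehicle, lowest in WT vehicle. No marker of the erythroid, granulocyte, Schwann cell or sensory neuron lists was at 0 in any library. The 10 lymphocyte and plasma cell markers summed to 45.7 and 53.6 CPM in iKO CFA, 21.0 and 17.5 CPM in iKO vehicle, 3.71 and 9.79 CPM in WT CFA and 2135 and 878 CPM in WT vehicle, with Mzb1 at 0 in some library. The 11 immediate early genes summed to 220 to 259 CPM in the iKO and WT CFA libraries, against 1011 and 870 CPM in WT vehicle. The part of these cells and signs in the members' differences was not tested.

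Genes that build, feed or regulate the chain were read from lists made for this purpose. Their counts stand against shares over all genes of 8.12% called higher and 8.71% lower for CFA in WT, of 8.28% and 9.33% for iKO against WT under vehicle, and of 6.19% and 3.17% for the interaction. For CFA in iKO, 2795 of 20235 genes were higher and 2996 lower at an unadjusted p under 0.05. DESeq2 called 9.51% higher and 11.1% lower there. Of 43 assembly factors, 0 passed for CFA against vehicle in iKO in edgeR's quasi-likelihood test (12 higher and 2 lower at an unadjusted p under 0.05, 7 higher by DESeq2), and 9 were called higher in WT, with Ndufaf3, an assembly factor of complex I, at 1.11 ± 0.18, adjusted p = 0.00779. Under vehicle 3 were higher and 2 lower in iKO than in WT. The lower ones were Cox17, the copper chaperone of complex IV (-1.13 ± 0.20, adjusted p = 0.00867), and Lyrm7, a chaperone of the Rieske protein (-1.19 ± 0.25, adjusted p = 0.0153). Cyc1, cytochrome c1 of complex III, was at 204 and 202 CPM in iKO CFA, 165 and 179 CPM in iKO vehicle, 157 and 232 CPM in WT CFA and 74.4 and 96.9 CPM in WT vehicle. It was called higher in WT CFA against WT vehicle (1.18 ± 0.23, adjusted p = 0.0142) and in iKO vehicle against WT vehicle (1.0 ± 0.23, adjusted p = 0.023), and the WT vehicle libraries were its lowest. Atpif1, the inhibitor of the ATP synthase, was at 253 and 239 CPM in iKO CFA, 163 and 163 CPM in iKO vehicle, 179 and 328 CPM in WT CFA and 154 and 179 CPM in WT vehicle, with 0.60 ± 0.27, adjusted p = 0.185 in iKO and 0.61 ± 0.27, adjusted p = 0.153 in WT after CFA.

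Of 19 genes of the tricarboxylic acid cycle, which supplies NADH and succinate, 4 were called higher after CFA in WT (8.12% of all genes) and 6 in iKO vehicle against WT vehicle (8.28%), and 5 were called lower in the interaction (3.17%). Pcx, pyruvate carboxylase, gave 0.93 ± 0.16, adjusted p = 0.0092 in WT and -1.22 ± 0.22, adjusted p = 0.0168 in the interaction, and Mdh2, mitochondrial malate dehydrogenase, 0.86 ± 0.18, adjusted p = 0.0175 and -1.21 ± 0.26, adjusted p = 0.0262. Of 19 glycolysis genes 7 were called higher and 0 lower after CFA in WT, and in the interaction 1 was higher and 6 lower. Gapdh was at 189 and 179.7 CPM in iKO CFA, 225 and 202 CPM in iKO vehicle, 205 and 197 CPM in WT CFA and 57.1 and 58.7 CPM in WT vehicle. It differed by 1.80 ± 0.17, adjusted p = 0.00118 in WT after CFA and by -2.01 ± 0.24, adjusted p = 0.00352 in the interaction, and again the WT vehicle libraries were the lowest. For CFA against vehicle in iKO, the median over glycolysis was -0.56 and over the tricarboxylic acid cycle -0.21, while the nuclear members had 0.47. Eno2, the neuronal enolase, was at 469 and 459 CPM in iKO CFA, against 881 and 918 CPM in iKO vehicle (-0.96 ± 0.25, adjusted p = 0.0989). In edgeR's quasi-likelihood test 0 of 19 passed in each of these lists, with 9 glycolysis genes lower and 1 higher at an unadjusted p under 0.05 and 8 called lower by DESeq2, and with 2 genes of the cycle lower and 2 higher and 2 called lower.

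Of 17 regulators of mitochondrial biogenesis, 2 were called higher and 2 lower in iKO vehicle against WT vehicle, and 1 higher and 2 lower in the interaction. The lower ones under vehicle were Gabpb2, a subunit that pairs with GABPA (-1.44 ± 0.24, adjusted p = 0.00741), which was the higher one in the interaction (1.45 ± 0.34, adjusted p = 0.0351), and Sirt1, a deacetylase (-0.94 ± 0.25, adjusted p = 0.0344). Ppargc1b, a coactivator of respiratory genes, was at 3.53 and 3.4 CPM in iKO CFA, 14.9 and 13.3 CPM in iKO vehicle, 10.3 and 5.13 CPM in WT CFA and 4.83 and 6.08 CPM in WT vehicle. It was higher in iKO vehicle than in WT vehicle (1.37 ± 0.34, adjusted p = 0.0276) and its interaction was -2.53 ± 0.48, adjusted p = 0.0183. Esrrg, a nuclear receptor with which it works, gave 1.30 ± 0.29, adjusted p = 0.0212 and -2.08 ± 0.42, adjusted p = 0.022. In both genes the level in iKO CFA was below that in iKO vehicle (-2.03 ± 0.35, adjusted p = 0.0831 and -1.81 ± 0.30, adjusted p = 0.0831), without passing. Polrmt, the mitochondrial RNA polymerase, was at 15.8 and 16 CPM in iKO CFA, 20.8 and 24.1 CPM in iKO vehicle, 19.2 and 14.1 CPM in WT CFA and 12.8 and 12.2 CPM in WT vehicle (0.85 ± 0.21, adjusted p = 0.0293 for iKO against WT under vehicle). Mterf1b, a paralog of a mitochondrial termination factor, was called lower in that comparison (-2.66 ± 0.62, adjusted p = 0.0229). Lrpprc, which stabilises mitochondrial RNAs, gave -1.07 ± 0.29, adjusted p = 0.0994 for CFA against vehicle in iKO. Of 17 genes of mitochondrial DNA maintenance and transcription, 1 was called higher after CFA in WT, and of 21 genes of mitochondrial RNA processing 2 were. Of 30 genes of import and the inner membrane 11 were called higher after CFA in WT, beside 8.12% of all genes, among them Timm23, the inner membrane translocase (1.12 ± 0.19, adjusted p = 0.00954), and Slc25a4, the ADP and ATP carrier (1.15 ± 0.24, adjusted p = 0.0171).

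Promoters were read for motifs of known regulators that nuclear members share. RefSeq promoters (GRCm38.p6), 250 bases before to 50 after each gene's start, were matched by symbol for 70 of the 88 nuclear members, with 75 promoters. Both strands were searched. The NRF1 motif, GCGCA followed by any base and GCGC, was in 24.0% of these promoters and in 4.60% of all 32851 promoters of the same length. The motif CCGGAAG of GABPA and other ETS factors was in 22.7% and 8.86%, and the YY1 motif, AAGATGG followed by CGG, in 6.67% and 0.852%. NRF1 and GABPA are known regulators of respiratory genes, and YY1 binds many promoters of the same kind. A match is a description of the sequence, not a binding site. Of the 70 matched members, 17 had the NRF1 motif and 17 the ETS motif. Among the 21 nuclear members called higher after CFA in WT, Atp5g3, Cox6a1 and Uqcrc1 had the NRF1 motif. Atp5l, Cox6a1, Cox8a, Ndufs3 and Ndufs8 had the ETS motif, and Ndufs7 the YY1 motif. Whether the motifs go with the calls was not tested. The following stretches are shown because they lie upstream of the start in members called higher after CFA in WT. A further NRF1 motif of Cox6a1, 117 bases before the start, is not shown. Capitals mark the motif, and the sequences run 5′ to 3′ on the gene's strand, which is the minus strand in all of them. The stretches are chr5:115349086-115349145 and chr5:115348959-115348999 of Cox6a1, chr2:90904722-90904773 of Ndufs3 and chr9:44920923-44920979 of Atp5l, and the motifs begin 162, 16, 27 and 212 bases before the start.
Cox6a1, NRF1 motif: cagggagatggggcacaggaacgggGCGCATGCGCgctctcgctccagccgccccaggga
Cox6a1, ETS motif: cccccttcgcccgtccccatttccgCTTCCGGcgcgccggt
Ndufs3, ETS motif: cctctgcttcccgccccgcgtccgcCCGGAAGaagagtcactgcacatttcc
Atp5l, ETS motif: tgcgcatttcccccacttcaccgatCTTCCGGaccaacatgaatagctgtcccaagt
Cox6a1 was at 474 and 439 CPM in iKO CFA, 324 and 319 CPM in iKO vehicle, 354 and 564 CPM in WT CFA and 204 and 236 CPM in WT vehicle (1.06 ± 0.24, adjusted p = 0.0223 for WT CFA against WT vehicle), Ndufs3, a core subunit of complex I, at 79.9 and 99.1 CPM in WT CFA, against 49.8 and 51.4 CPM in WT vehicle (0.82 ± 0.18, adjusted p = 0.0194), and Atp5l at 119 and 374 CPM in WT CFA, against 85.5 and 76.7 CPM in WT vehicle (1.61 ± 0.43, adjusted p = 0.0374).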

How the data were processed

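Total RNA of mouse dorsal root ganglia was sequenced, per the labels, in 8 libraries of 4 groups of 2. The deposited values are raw counts of reads per gene, which the authors made with HISAT2 2.2.1, SAMtools 1.19.2 and featureCounts 2.0.6 on GRCm39, per the submitters' processing notes, which also name DESeq2. The gene annotation, the strand setting and the treatment of reads with several matches are not given in the sources used here. All 8 columns of the count table belong to samples of the series, and 0 further columns were present.

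Counts were filtered with filterByExpr, scaled with TMM and fitted over all 8 libraries with edgeR 4.0.16 (R 4.3.3) by glmQLFit and glmQLFTest, without a block. A call is an adjusted p under 0.05 over the 20235 genes tested. The script was tested on simulated data. Of 100 genes changed by a log2 of 1 in iKO CFA, edgeR called 18 with the right sign and DESeq2 46. Of 100 genes changed by a log2 of 2, they called 96 and 99. A difference near 1 that did not pass is therefore not shown to be absent. CPM use TMM-scaled library sizes of 26312614 to 42971823 reads before scaling, and a level rests on counting error plus the spread of 2 libraries. Alternatives were DESeq2 1.42.0, no filter on low counts, other scalings, the replicate block, the compared groups alone and each library left out. "Apart" means that both libraries of a group lay beyond both of the other. Copies were found with BLAST 2.17.0 among GENCODE M21 transcripts (GRCm38), and promoters came from RefSeq (GRCm38.p6). No coordinates were carried between builds.

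Members and gene lists were chosen with earlier results of these data known. Named genes are the mitochondrial members, core subunits, tissue isoforms and retrocopies with their partners, and in each comparison up to 4 nuclear members per complex and 4 genes per other list by smallest p. Other calls, copies and genes with a motif were named after their values were seen. The values of 1 member are not reported here. The labels number the replicates 1 and 2 in each group, and same-numbered libraries did not deviate together (correlations from -0.144 to 0.0275).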

Additional observations from a re-analysis of the deposited data

Results flagged for a closer look

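In 3 nuclear members the CFA difference in iKO mice differed from that in WT mice by the test of the difference itself, the interaction in edgeR's quasi-likelihood test. Of the 87 nuclear members tested, 1 was called higher and 2 lower, where 6.19% of all genes were called higher and 3.17% lower. Ndufs5, an accessory subunit of complex I, had an interaction of 2.68 (adjusted p = 0.00302), which was -0.32 when the reads of Ndufs5-ps were added. Uqcrc1, a core protein of complex III, had an interaction of -1.0 (adjusted p = 0.0429). Atp5a1, the alpha subunit of the ATP synthase, had an interaction of -1.06 (adjusted p = 0.0481). In Uqcrc1 and Atp5a1 the WT vehicle libraries, which also held the most nuclear noncoding RNA, were the lowest, and the part of that RNA in the result was not tested. With 2 libraries a group, no test of outlying samples was made.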

How the results depend on the processing

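Of 4215 values of single genes under an alternative, 3545 kept their direction and side of the threshold, 234 lost a call, 312 gained one, 12 reversed and 112 others moved. The number called over all genes also rose and fell widely with the library left out. The ranges that follow are therefore not particular to the members. Leaving out each library in turn (the other sample of that group is then assumed to vary like the other groups) gave, for CFA against vehicle in iKO, 0 to 12 mitochondrial members higher and 0 to 45 nuclear members higher and 0 to 3 lower. For CFA against vehicle in WT it gave 0 to 11 mitochondrial members higher, and 0 to 60 nuclear members higher and 1 to 4 lower. For iKO against WT under CFA it gave 0 to 5 mitochondrial members higher and 0 to 8 lower, and 1 to 37 nuclear members higher and 0 to 7 lower. Under vehicle it gave 0 to 6 mitochondrial members lower, and 0 to 32 nuclear members higher and 0 to 7 lower. For the interaction it gave 0 to 9 mitochondrial members higher and 0 to 2 lower, and 1 to 27 nuclear members higher and 0 to 29 lower.

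For CFA against vehicle in iKO, DESeq2 called 12 mitochondrial and 11 nuclear members higher, no low-count filter gave 2 mitochondrial members, and the compared groups alone gave 13 mitochondrial and 58 nuclear members higher and 5 nuclear members lower. Over all genes DESeq2 called 9.51% higher, no low-count filter 1.33%, and the compared groups alone 22% higher and 23.4% lower. The shares of DESeq2 are of the genes with an adjusted p. For CFA against vehicle in WT, the compared groups alone gave 0 mitochondrial and 0 nuclear members higher, and DESeq2 33 nuclear members higher and 2 lower. Over all genes the compared groups alone called 0.198% higher, and DESeq2 10.2% higher and 12.3% lower. For iKO against WT under vehicle, mitochondrial members called lower were 3 with DESeq2, 2 without a low-count filter, 2 with the other legacy setting of edgeR and 6 with the compared groups alone. Nuclear members called there were 27 higher and 10 lower with the compared groups alone and 3 lower with DESeq2. Over all genes the compared groups alone called 19.7% higher and 23.2% lower. The lower share was 13.8% with DESeq2, 7.76% without a low-count filter and 12.8% with the other legacy setting. In the interaction 6 nuclear members were lower with DESeq2 and 1 without a low-count filter, where 8.64% and 2.87% of all genes were. With the replicate block, 3 mitochondrial members were higher for CFA in WT, 6 nuclear members were higher in iKO under vehicle and 0 nuclear members were lower in the interaction. The shares over all genes were 5.77%, 5.57% and 1.1%. The labels do not say whether the replicate numbers pair the libraries, and the cause of these changes was not tested.

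With the counted copies added to their parents, an alternative chosen after seeing the data, nuclear members called were 0 lower for CFA in WT, 0 higher for iKO against WT under CFA, 7 higher under vehicle and 0 higher in the interaction. The shares over all genes were 9.22%, 1.41%, 6.91% and 6.34%. Ndufs5 then differed by 0.83 for CFA in WT and by -0.32 in the interaction. Without WT CFA replicate 2, iKO against WT under CFA reversed to 0.89 for Cox6c, 0.61 for Cox7b, 0.59 for Ndufa4, 0.73 for ND1, 0.76 for ND2, 0.75 for ND5, 0.72 for ND6 and 0.76 for Uqcrq, and the interaction to 0.99 for ND5 and 0.79 for ND6. The lowest values, without WT CFA replicate 1, were -0.67 for Cox6c, -0.56 for Cox7b, -0.73 for Ndufa4, -0.96 for ND1, -1.01 for ND2, -0.97 for ND5, -0.89 for ND6 and -0.62 for Uqcrq, and in the interaction -0.73 for ND5 and -0.82 for ND6. The mitochondrial share in iKO CFA was 6.51% of the reads of other genes. The mean log2 level of mitochondrial minus nuclear members was 2.66 in iKO CFA, 1.14 in iKO vehicle, 3.05 in WT CFA and 2.10 in WT vehicle. By library this level was 2.680 and 2.637 in iKO CFA and 0.883 and 1.404 in iKO vehicle. It was 2.449 and 3.655 in WT CFA and 2.454 and 1.750 in WT vehicle, so the WT groups overlapped. As medians the differences were 3.76 in iKO CFA, 2.49 in iKO vehicle, 3.95 in WT CFA and 2.83 in WT vehicle. The mean differences without isoforms and retrocopies were 1.85 in iKO CFA, 0.29 in iKO vehicle and 1.30 in WT vehicle. The WT CFA libraries were then at 1.61 and 2.80, against 1.71 and 0.88 in the WT vehicle libraries.

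With 2 libraries a group, 1 library can make or undo a call, and the WT CFA libraries differed from each other in most members. Both WT vehicle libraries stood apart in nuclear noncoding and lymphocyte RNA, so every comparison with them confounds that difference with the group. Depth was not the limit for most members, but ATP8, Cox6a2, Cox7a1, Cox7b2 and Cox8b had few reads. Intervals on these levels were not computed.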
